A study of Mus musculus with 2 samples.

Results

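The genes of the mitochondrial ribosomal proteins were examined for CTCF sites at their promoters in embryonic mouse lung. They were taken as the protein-coding genes of GENCODE mouse release M21 whose symbols begin with Mrpl or Mrps followed by a digit, which gave 77 genes of 21883 protein-coding genes with a unique symbol. Of these 77 genes, 48 carried an Mrpl name and 29 an Mrps name, and the other 21806 protein-coding genes served as the background. CTCF chromatin immunoprecipitation with sequencing (ChIP-seq) had been carried out on 2 replicates of 1 group, lung of B6NCrl mouse embryos at day 14.5, with both sexes mixed. Per the labels, the material was powdered tissue pooled from several dissections, and both replicates carry the same biosample and donor record, so their spread may be only technical. The study held no other condition, and no test between conditions was possible. The peak lists hold no expression values, so the labelled tissue was not checked against lung markers.

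Mitochondrial ribosomes translate the few proteins that the mitochondrial genome encodes, which are subunits of the respiratory chain and of ATP synthase. All proteins of these ribosomes are encoded in the nucleus, made in the cytosol and imported. Some descend from bacterial ribosomal proteins and are called bacterial-type here, while others were added in mitochondria. CTCF is a zinc finger protein that binds a long DNA motif and, with cohesin, anchors chromatin loops; it also binds close to many promoters.

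The sites were the summits of peaks that passed the authors' optimal threshold of the irreproducible discovery rate (IDR), 54943 of them on the assembled chromosomes of mm10. Each gene had 1 transcription start site (TSS), and a promoter site was a summit within 1 kb of it. The signal is the authors' peak signal, on a scale that holds only within a list, and offsets are negative upstream of the TSS. Matches to the CTCF motif were found with a 20-base matrix learned from the strongest sites of the list, none of them near these genes.

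The sequences under the strongest promoter sites are shown before the sites are described. Matches are in capitals, with 10 flanking bases in lower case where the match lies outside annotated exons, 5′ to 3′ on the strand of the motif. The most frequent base at each position of the matrix gives this consensus, followed by the matches of 8 strong sites in order of signal.
CTCF consensus: CCACCAGGGGGCGCTAGAGC
Mrpl34: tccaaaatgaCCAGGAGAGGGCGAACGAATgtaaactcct
Mrps33: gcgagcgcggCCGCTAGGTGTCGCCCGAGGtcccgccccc
Mrps12: CCGCAAGGGGGAGCTGCGGC
Mrpl17: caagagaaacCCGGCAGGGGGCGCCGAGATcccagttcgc
Mrpl11: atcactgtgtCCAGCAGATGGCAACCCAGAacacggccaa
Mrpl38: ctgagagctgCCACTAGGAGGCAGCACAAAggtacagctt
Mrps14: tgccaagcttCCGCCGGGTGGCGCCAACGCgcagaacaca
Mrps18b: CCGCAAGGGGGCAGCCATCT

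In mm10 the printed stretches lie at chr8:71464771-71464810 for Mrpl34, chr6:39811005-39811044 for Mrps33 and chr7:105811239-105811278 for Mrpl17. Those of Mrpl11, Mrpl38 and Mrps14 lie at chr19:4961999-4962038, chr11:116139033-116139072 and chr1:160194951-160194990. The matches of Mrps12 and Mrps18b, printed without flanks, lie at chr7:28742243-28742262 and chr17:35916346-35916365. Each of the 8 had 9 to 12 of the first 14 bases of the consensus, and the match of Mrpl11 scored highest of them, at 19.31 bits against a threshold of 11.083 bits. The scores of the other 7 ran from 12.4 to 16.7 bits.

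3 other strong sites had no match above the threshold within 50 bp of the summit. Their best windows are shown for comparison and scored 4.66 bits at Mrpl39, 3.76 bits at Mrps2 and 7.66 bits at Mrps16.
Mrpl39: CCACGCGGGGGCGCATGCGC
Mrps2: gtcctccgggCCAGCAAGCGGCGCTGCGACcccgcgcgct
Mrps16: CCGCTTGGGGGCGCTCTTCC

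A promoter site was found at 26 of the 77 mitochondrial ribosomal protein genes, or 33.8% (95% Wilson interval 24.2 to 44.9%), against 26.5% of the other protein-coding genes. Over all 21883 genes the share was 26.6%. Within 5 kb, 47 of the 77 genes had a site, or 61.0% (49.9 to 71.2%), against 44.7% of the other genes, and over all genes the share was 44.8%. The intervals cover counting error only.

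As promoters of higher GC held more sites in this list, the other genes were also weighted to the GC content of these promoters, taken over 1 kb on each side of the TSS. The mitochondrial ribosomal protein genes had a median promoter GC of 49.6%, against 51.2% for the other genes. Weighted in this way, 27.7% of the other genes had a site within 1 kb and 47.0% within 5 kb. The 1 kb share of the weighted background lies inside the interval of the 77 genes, while the 5 kb share lies below it. The 1 kb order depended on the measure of base composition, and the 5 kb order did not. The 77 promoters were close to the background in GC but richer in CpG, with a median observed over expected ratio of 0.595 against 0.473. Weighted to that ratio, 39.4% of the other genes had a site within 1 kb, which is more than the 33.8% of the mitochondrial ribosomal protein genes, and 58.4% had one within 5 kb. Weighted to GC within 250 bp of the TSS, the shares of the other genes were 32.5% and 53.2%. Under these last 2 weightings the 5 kb share of the other genes lies inside the interval of the 77 genes.

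Among the mitochondrial ribosomal protein genes themselves, those with a promoter site had a median promoter GC of 52.1% and those without one 49.2%. In the lowest of 3 ranges of promoter GC, 5 of 26 genes had a site (19.2%), against 11.4% of other genes in that range. The middle range held 8 of 24 (33.3%) against 29.5%, and the highest 13 of 27 (48.1%) against 38.9%. In each range the share of these genes was above that of the other genes, and in each its interval held the other genes' share.

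**Figure D1:**
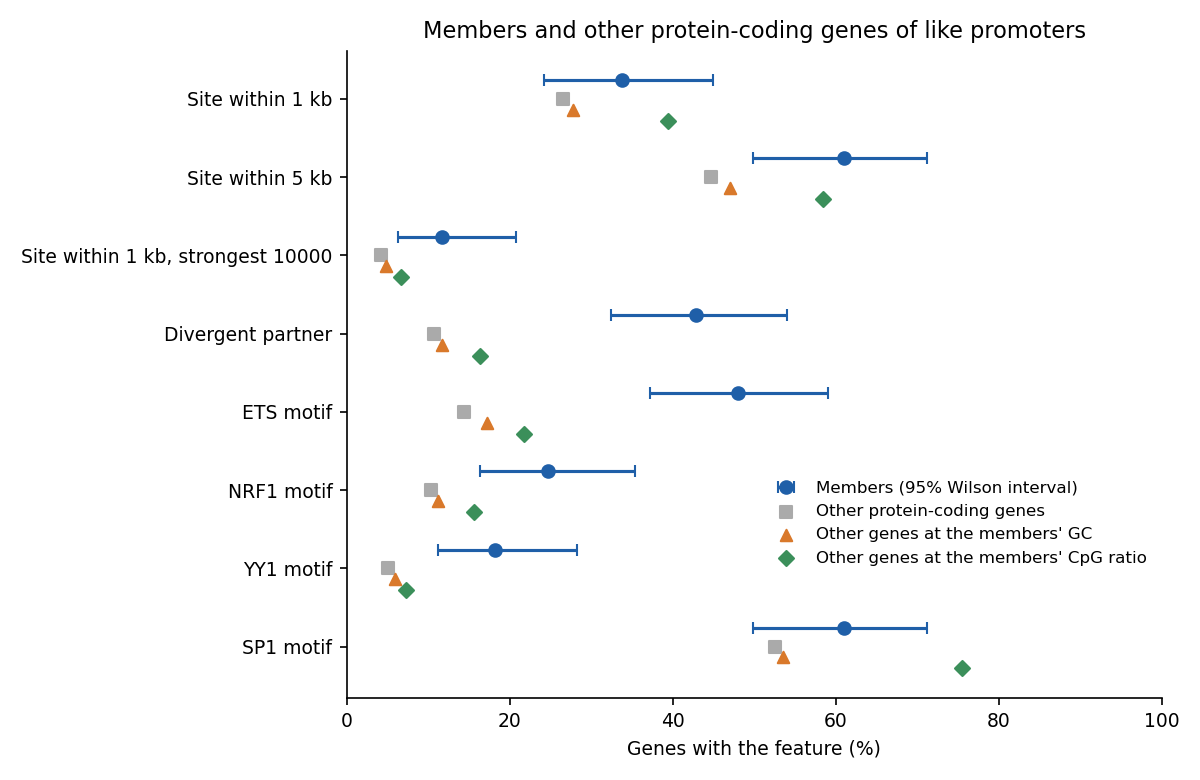
Share of genes with each feature, in percent. Blue points with bars give the 77 mitochondrial ribosomal protein genes with 95% Wilson intervals, and grey squares, orange triangles and green diamonds give the other protein-coding genes unweighted, weighted to the same promoter GC and weighted to the same CpG ratio. For a site within 1 kb the green diamond (39.4%) lies to the right of the blue point (33.8%), while for a divergent partner all 3 comparison shares, up to 16.4%, lie left of the interval around 42.9%.

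The plot of shares sets these weightings side by side for each feature. Sites of the strongest class were present at more of these promoters than in the background under every weighting. With only the strongest 10000 summits of the list, 9 of the 77 genes had one within 1 kb, or 11.7% (6.27 to 20.8%), against 4.25% of the other genes. Weighted to GC that share was 4.76%, and weighted to the CpG ratio 6.63%, which falls inside the interval of the 77 genes.

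At the 26 genes with a promoter site, the strongest site of each had a median signal of 87.2, from 17.3 at Mrps6 to 350.2 at Mrpl34. At the 5790 other genes with a site the median was 55.5. Ranked within the list, the median percentile was 59.7 for these genes and 46.3 for the others. The top 20% of the list held 9 of the 26 (34.6%, 19.4 to 53.8%), against 17.3% of the 5790. No site had a signal between 89.8 and 168, so a strong set of 11 sites, up to 350.2, is described apart from the other 18. This division was drawn after the values were seen. 3 genes, Mrps26, Mrps28 and Mrpl39, had 2 sites each, which makes 29 sites with distinct summits. The weaker site of Mrps26 had a signal of only 6.89, the lowest of the 29, and its peak overlaps that of the stronger site.

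**Figure D2:**
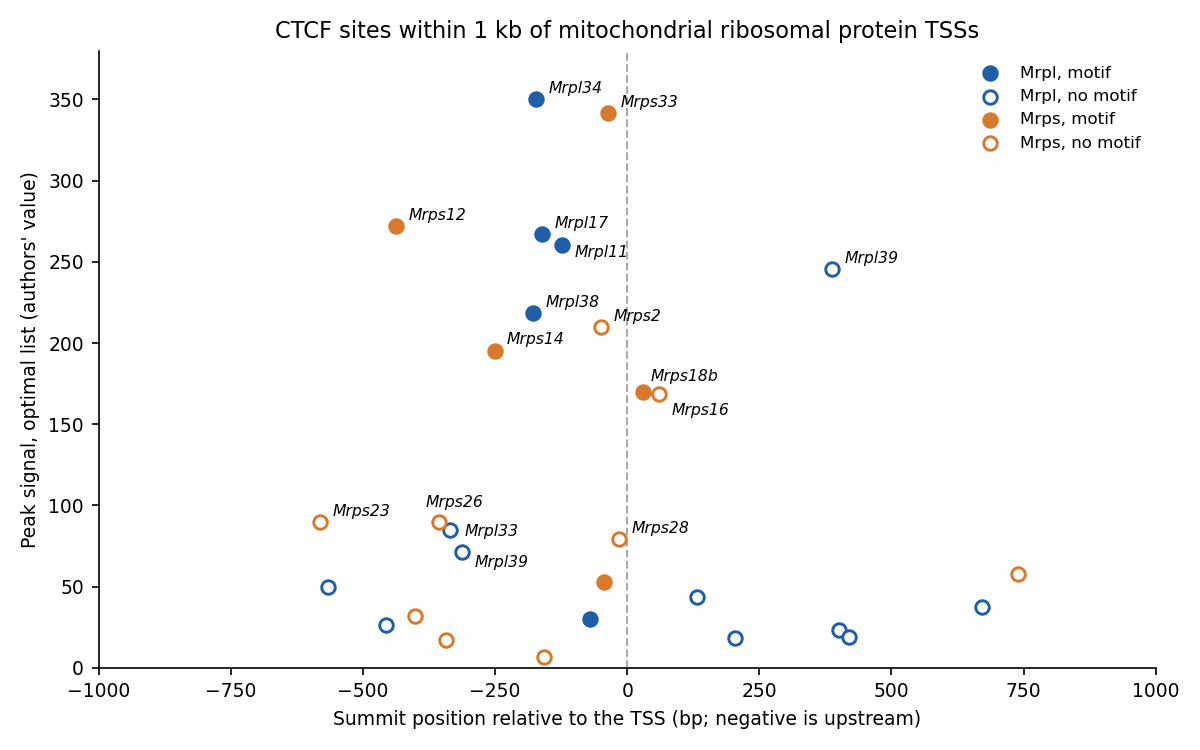
Peak signal of each of the 29 sites within 1 kb of a mitochondrial ribosomal protein TSS against the summit's position from the TSS in bp. Blue marks Mrpl genes and orange Mrps genes; filled circles have a motif match and open ones do not. The 11 sites at 168 or more stand apart from the 18 at 89.8 or less, and 8 of the 11 are filled.

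The plot of signal against position shows the strong set mostly just upstream of the TSS. Mrpl34 encodes a bacterial-type protein of the large subunit and had the strongest site, a peak at chr8:71464590-71464943 between genes. Its summit lay at -173 bp with a signal of 350.2, and the peak signals were 187.6 in replicate 1 and 163.0 in replicate 2. It ranked 1297 in the list.

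Mrps33, a small-subunit protein without a bacterial counterpart, had its summit at -36 bp, with 341.5 in the optimal list and 191.1 and 149.4 in the replicates. Mrps12 encodes the counterpart of bacterial S12, a protein of the decoding centre. Its site at -438 bp had a signal of 272.2 and replicate signals of 150.3 and 121.4. This site lay inside a coding exon of the neighbouring Sars2, whose TSS was closer, at 266 bp.

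Mrpl17, a bacterial-type protein of the large subunit, had a site at -162 bp with a signal of 266.9 and replicate signals of 149.9 and 120.3. Mrpl11, which belongs to the base of the stalk that recruits translation factors, had one at -123 bp with 260.5, and 140.1 and 120.3 in the replicates. Mrpl38, a large-subunit protein, had 218.4 at -179 bp, with 125.0 and 92.2 in the replicates. All 3 had a motif match and lay outside annotated exons.

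Mrpl39 had its stronger site downstream, at +388 bp in its untranslated exon sequence, with 245.4 in the optimal list and 143.3 and 103.0 in the replicates. Its second site, at -313 bp, was weaker, at 71.2. Mrps2, the counterpart of bacterial S2, had 209.9 at -50 bp, and among the 11 strong sites it alone had a lower signal in replicate 1 (101.8) than in replicate 2 (108.0). Neither Mrpl39 nor Mrps2 had a motif match.

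Mrps14, a bacterial-type protein of the small-subunit head, had 195.3 at -251 bp, with 108.8 and 84.9 in the replicates. Mrps18b had 169.9 at +29 bp within its coding sequence, with 92.9 and 75.7 in the replicates. Mrps16, a bacterial-type protein of the small-subunit body, had 168 at +60 bp, with 86.7 and 82.6 in the replicates. At these 3 genes the summit and the TSS were within 251 bp of each other.

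Below the gap, Mrps26 led the weak set with 89.8 at -357 bp, and 52.7 and 35.8 in the replicates. Mrps23, Mrpl33, Mrps28 and Mrps35 followed with signals between 89.7 and 52.8. The remaining genes of the weak set were Mrpl50, Mrpl44, Mrpl48, Mrps25, Mrpl20, Mrpl2, Mrpl37, Mrpl40, Mrpl14 and Mrps6, with signals from 49.8 to 17.3. Of the weak set, Mrps35 and Mrpl20 had a motif match.

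The 3 strongest sites with a match that overlaps no annotated exon can be read in place. The 200 bases just upstream of the TSS are shown on the strand of the gene for Mrpl34 (chr8:71464759-71464958), Mrps33 (chr6:39810989-39811188) and Mrpl17 (chr7:105811100-105811299), with the CTCF match in capitals and the TSS just after the last base.
Mrpl34: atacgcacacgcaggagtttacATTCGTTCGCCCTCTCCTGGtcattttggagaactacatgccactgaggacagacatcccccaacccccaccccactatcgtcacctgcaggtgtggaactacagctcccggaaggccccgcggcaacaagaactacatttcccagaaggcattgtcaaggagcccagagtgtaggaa
Mrps33: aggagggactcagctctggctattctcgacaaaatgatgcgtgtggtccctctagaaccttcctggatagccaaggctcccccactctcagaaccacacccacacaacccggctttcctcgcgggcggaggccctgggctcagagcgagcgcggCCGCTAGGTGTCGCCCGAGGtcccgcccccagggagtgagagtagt
Mrpl17: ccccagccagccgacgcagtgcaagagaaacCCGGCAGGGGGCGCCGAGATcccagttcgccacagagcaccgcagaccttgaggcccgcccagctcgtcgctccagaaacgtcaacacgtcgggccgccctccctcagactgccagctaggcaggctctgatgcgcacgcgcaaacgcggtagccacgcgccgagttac

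In Mrpl34 the match runs against the gene and so appears as its reverse complement, while in Mrps33 and Mrpl17 it runs with the gene. The centre of the match lay at -169 bp in Mrpl34, -159 bp in Mrpl17 and -36 bp in Mrps33.

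Position relative to the TSS was measured for the strongest site of each of the 26 genes. The median distance was 227 bp, against 262 bp at other genes with a site, and the median offset was -96.5 bp against -37 bp. Upstream summits made up 18 of the 26 (69.2%, 50.01 to 83.5%), against 55.4% at the other genes. Within 250 bp of the TSS lay 13 of the 26, against 2812 of the 5790 other genes (48.6%). The interval of the upstream share holds the share of the other genes, so a difference in side is not established. The sides were also read in 500 bp bins. The 500 bp just upstream of the TSS held a summit at 17 of all 77 genes (22.1%), against 12.1% of the other genes and 12.7% of those weighted to GC. This bin is 1 of many, and its share has no interval. It was not weighted to the CpG ratio, the weighting that reversed the order for the whole 1 kb window. The 500 bp just downstream held one at 7 genes (9.09%), against 8.71% of the other genes.

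**Figure D3:**
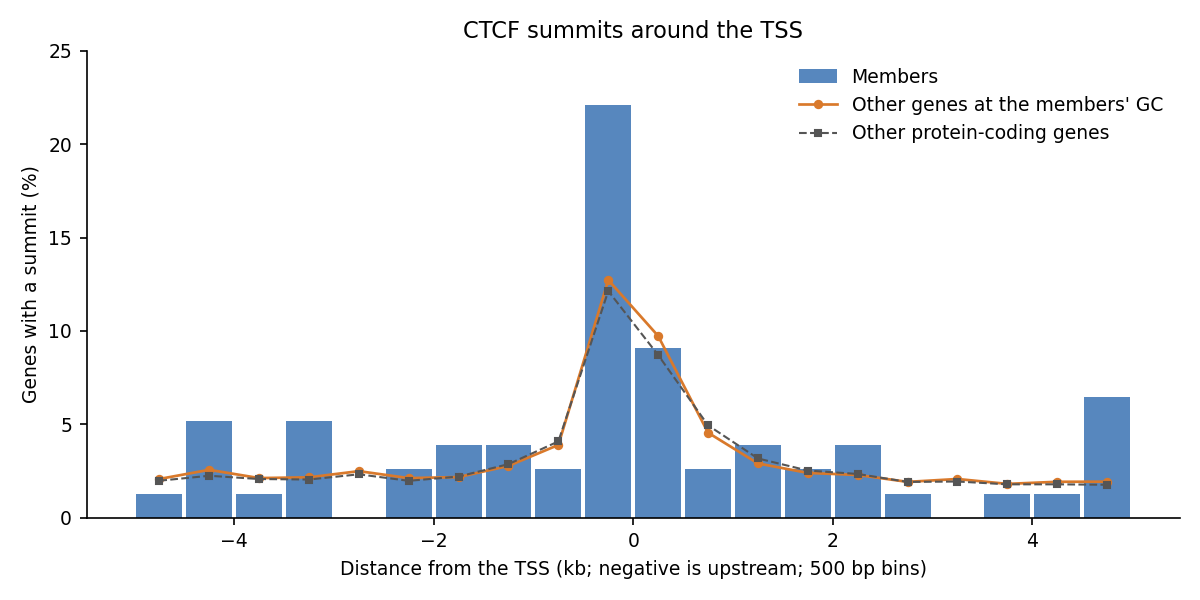
Percent of genes with at least 1 CTCF summit in each 500 bp bin from 5 kb upstream to 5 kb downstream of the TSS. Bars give the 77 mitochondrial ribosomal protein genes, the orange line the other genes weighted to the same GC and the dashed line all other genes. The bar just upstream of the TSS reaches 22.1% where the lines are at 12.7% and 12.1%. No weighting to the CpG ratio was made for this profile.

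The profile around the TSS shows that bin and, farther out, bins of at most 5 genes each. By annotation, 14 of the 29 sites lay between genes, 8 in introns only and 7 in exons. The sites of other genes were not annotated in this way. The nearest protein-coding TSS was the gene's own at 24 of the 29, and at the other 5 it was that of Sars2, Zfp189, Wdfy1, Rab6a or Klc4.

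A motif match within 50 bp of the summit was found at 10 of the 26 genes with a site (38.5%, 22.4 to 57.5%), against 28.1% of the 5790 other genes with one. Signal goes with the motif in both groups of genes. In the upper part of the list, above the median signal, 8 of 15 of these genes had a match (53.3%, 30.1 to 75.2%), against 46.4% of the other genes. In the lower part it was 2 of 11 (18.2%, 5.14 to 47.7%), against 12.4%, and the intervals of the upper and lower parts overlap. The match ran on the same strand as the gene in 5 of the 10, against 60.4% of the 1627 other genes with a match. With 10 matches, the interval of that share runs from 23.7 to 76.3% and holds the share of the other genes.

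Both replicates were compared at each site. A peak summit within 50 bp was found in each replicate's own list at 27 of the 29 sites, with the exceptions of Mrpl40 and the weaker site of Mrps26. The ratio of replicate 1 to replicate 2 had a median of 1.23, from 0.375 at Mrpl2 to 1.87 at the weaker site of Mrps28, against a median of 1.23 over 51304 matched sites of the whole list. Replicate 1 was higher at 20 of the 27 sites and replicate 2 at 7. The signals are not scaled between replicates, so a ratio of 1 is not the point of no difference.

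**Figure D4:**
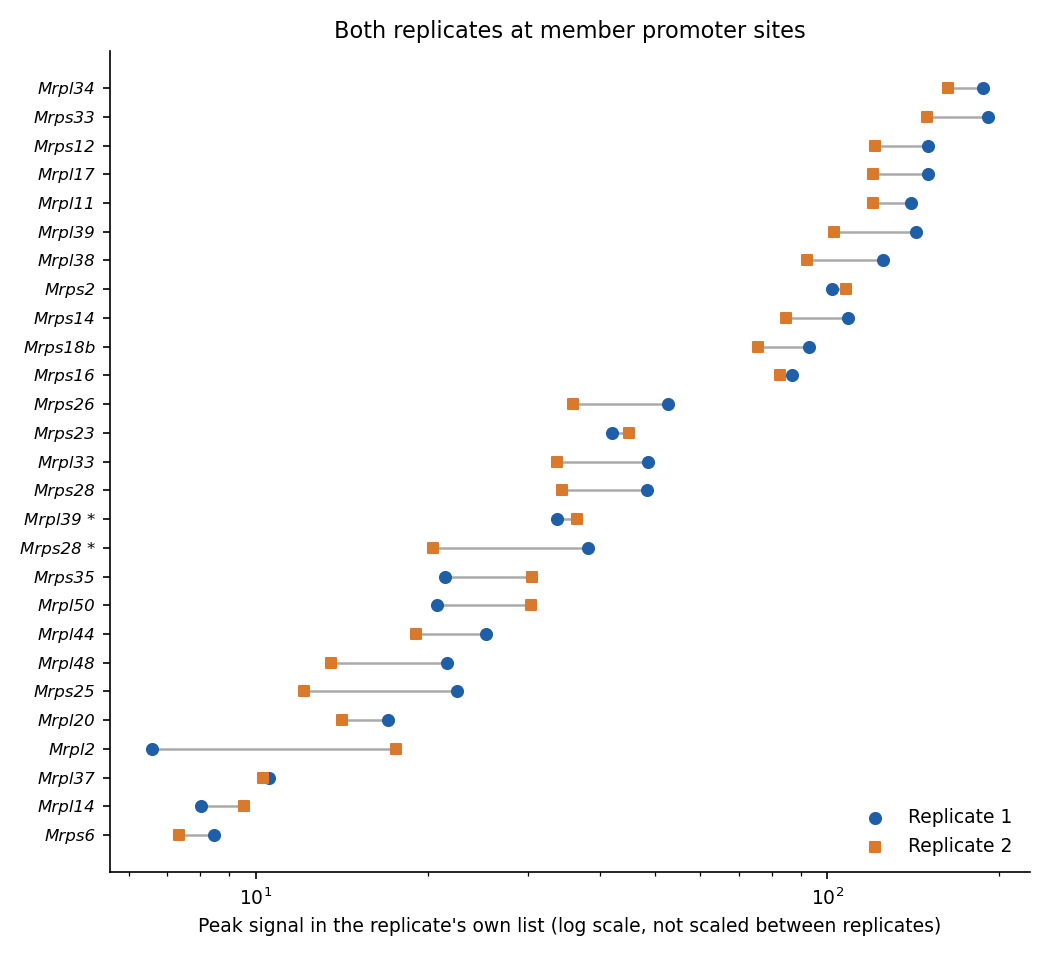
Peak signal at 27 sites of mitochondrial ribosomal protein promoters in replicate 1 (circles) and replicate 2 (squares) on a log axis, each from its own list and not scaled between replicates. An asterisk marks the weaker of a gene's 2 sites. Replicates lie close together at the top, and the widest gap is at Mrpl2, with 6.59 in replicate 1 and 17.6 in replicate 2.

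The plot of both replicates shows that the 11 strong sites were also the highest in each replicate. The optimal list was made from these same replicates, so this order is not independent of how the 11 were set apart. The conservative IDR list held 26 of the 29 sites, without those of Mrpl2, Mrpl40 and Mrpl14. That list had 53112 peaks in all, against 54953 in the optimal list, and gave a promoter site at 25.4% of the other genes. Of the 26 genes, 21 had a promoter site in all 5 versions of the list: optimal, conservative, and equally long tops of the replicate 1, replicate 2 and pooled lists. The 5 that did not were Mrpl37, Mrpl2, Mrpl14, Mrpl40 and Mrps6. In the other direction, Mrpl28 had a promoter site in 4 versions but not in the optimal list, and Mrpl47, Mrpl51 and Mrpl57 in 3. No version gave a promoter site for 40 of the 77 genes. Such counts over the 5 versions were not made for the other genes.

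No site within 1 kb was present at 51 genes, of which 21 had one between 1 and 5 kb and 30 had none within 5 kb. The nearest cases to the 1 kb limit were the second site of Mrps28 at +740 bp and the site of Mrpl48 at +671 bp inside it, and a second site of Mrpl40 at -1055 bp and the site of Mrpl30 at +1121 bp outside it. Strong sites also occurred in the wider window. Mrpl12 encodes the stalk protein that contacts translation factors, and its site lay at +4857 bp with a signal of 271.4, nearest to the TSS of Slc25a10. Mrpl53 had 254.7 at -1275 bp, Mrps10 253.8 at +2767 bp inside its own intron, Mrpl28 247.6 at -3146 bp and Mrpl16 169.0 at -2034 bp. Each of these 5 sites had a motif match. Mrps2, which also has a promoter site, had another site of 193.9 at -3940 bp without a match. In all, 18 of the 36 sites at 1 to 5 kb had a match. The share with a match was not counted for sites at 1 to 5 kb of other genes. The other genes with a site at 1 to 5 kb and none closer were Mrpl4, Mrpl9, Mrpl10, Mrpl22, Mrpl30, Mrpl35, Mrpl36, Mrpl43, Mrpl45, Mrpl52, Mrpl57, Mrpl58, Mrps7, Mrps17, Mrps21 and Mrps34.

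The 30 genes without a site within 5 kb were Mrpl1, Mrpl3, Mrpl13, Mrpl15, Mrpl18, Mrpl19, Mrpl21, Mrpl24, Mrpl27, Mrpl32, Mrpl41, Mrpl42, Mrpl46, Mrpl47, Mrpl49, Mrpl51, Mrpl54, Mrpl55, Mrps5, Mrps9, Mrps11, Mrps15, Mrps18a, Mrps18c, Mrps22, Mrps24, Mrps27, Mrps30, Mrps31 and Mrps36. The pooled list, which was deposited before thresholding and holds 300000 peaks, gave weak peaks at many of them. A pooled peak lay within 1 kb at 45 of the 51 genes without a promoter site (88.2%), against 48.2% of other genes without one. The strongest such peak was low in signal for most: the median was 8.69 at these genes and 9.03 at the others, and the highest were 34.8 at Mrpl51 and 30.3 at Mrpl57. With thresholded and weak peaks together, 92.2% of the 77 genes had a pooled peak within 1 kb, against 61.9% of the other genes, 65.8% weighted to GC and 84.1% weighted to the CpG ratio. Most peaks of the pooled list did not pass the IDR threshold, and whether the weak ones are binding or background was not tested.

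Divergent partners were common among these genes. A protein-coding gene on the opposite strand, starting within 1 kb, faced 33 of the 77 genes (42.9%, 32.4 to 54.0%), against 10.7% of the other genes, 11.6% weighted to GC and 16.4% weighted to the CpG ratio. The 33 genes make 32 pairs, since Mrps11 and Mrpl46 face each other. The median distance between the starts was 128 bp, from 26 to 935 bp, against 183 bp at the other genes. In 15 of the 33 cases the transcribed regions overlapped at their 5′ ends, and in 18 they were separate. Among the partners were further genes of mitochondria: Sars2, a mitochondrial seryl-tRNA synthetase beside Mrps12; Twnk, the mitochondrial DNA helicase, beside Mrpl43; and Ndufb5 and Ndufs6, subunits of respiratory complex I, beside Mrpl47 and Mrpl36.

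A promoter site was present at 9 of the 33 genes with a partner (27.3%, 15.1 to 44.2%) and at 17 of the 44 without one (38.6%, 25.7 to 53.4%). The difference was -11.4 percentage points, with a 95% interval from -30.5 to 9.94, which includes 0. Among the other genes the order was the other way, with 951 of 2339 (40.7%) against 4839 of 19467 (24.9%), a difference of 15.8 points. Weighted within each class to the CpG ratio of the mitochondrial ribosomal protein genes in it, the shares of the other genes were 42.3% with a partner and 37.8% without one. With the strongest 10000 summits the difference in the other genes was -0.0156 points. The difference of the mitochondrial ribosomal protein genes was not tested against that of the other genes.

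The 9 genes with a partner and a site had mostly weak sites, with a median signal of 37.8, against 168 at the 17 without a partner. At the other genes with a site the median was also lower with a partner, at 46.0 against 58.1 without one. Neither difference was tested. Among the 9 genes, Mrps12 with Sars2 and Mrps18b with Ppp1r10, a regulator of protein phosphatase 1, had the strong sites, at 272.2 and 169.9. Mrpl50 and the zinc finger gene Zfp189 shared a site of 49.8 at -566 bp. Mrpl44 and Wdfy1 shared one of 43.4 at +132 bp, which was 7 bp from the TSS of Wdfy1.

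Mrpl48 and Rab6a, a small GTPase of the Golgi, shared a site of 37.8 at +671 bp, and Mrpl2 and Klc4, a kinesin light chain, one of 26.3 at -456 bp. Mrpl37 and Cyb5rl had 23.3 at +401 bp. The site of Mrpl40, beside the histone chaperone gene Hira, had 18.8 at +420 bp, and that of Mrpl14, beside the ion channel gene Tmem63b, 18.3 at +203 bp. At 5 of these 9 sites the partner's TSS was the closer one.

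The names and origins of the proteins were compared next. A promoter site was present at 14 of 48 Mrpl genes (29.2%, 18.2 to 43.2%) and at 12 of 29 Mrps genes (41.4%, 25.5 to 59.3%), with median signals of 46.6 and 129.1. Bacterial-type genes had one in 13 of 45 (28.9%, 17.7 to 43.4%) and mitochondria-specific genes in 13 of 32 (40.6%, 25.5 to 57.7%), with median signals of 168 and 52.8. In both splits the intervals overlap, and each holds the background of 26.6%. The names do not always give the subunit, as Mrps30 and Mrps18a are known in the large subunit. Mrps18c was counted as bacterial-type, but Mrps18a and Mrps18b, which share its number, as mitochondria-specific. A split strictly by descent could therefore differ from the one given.

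**Figure D5:**
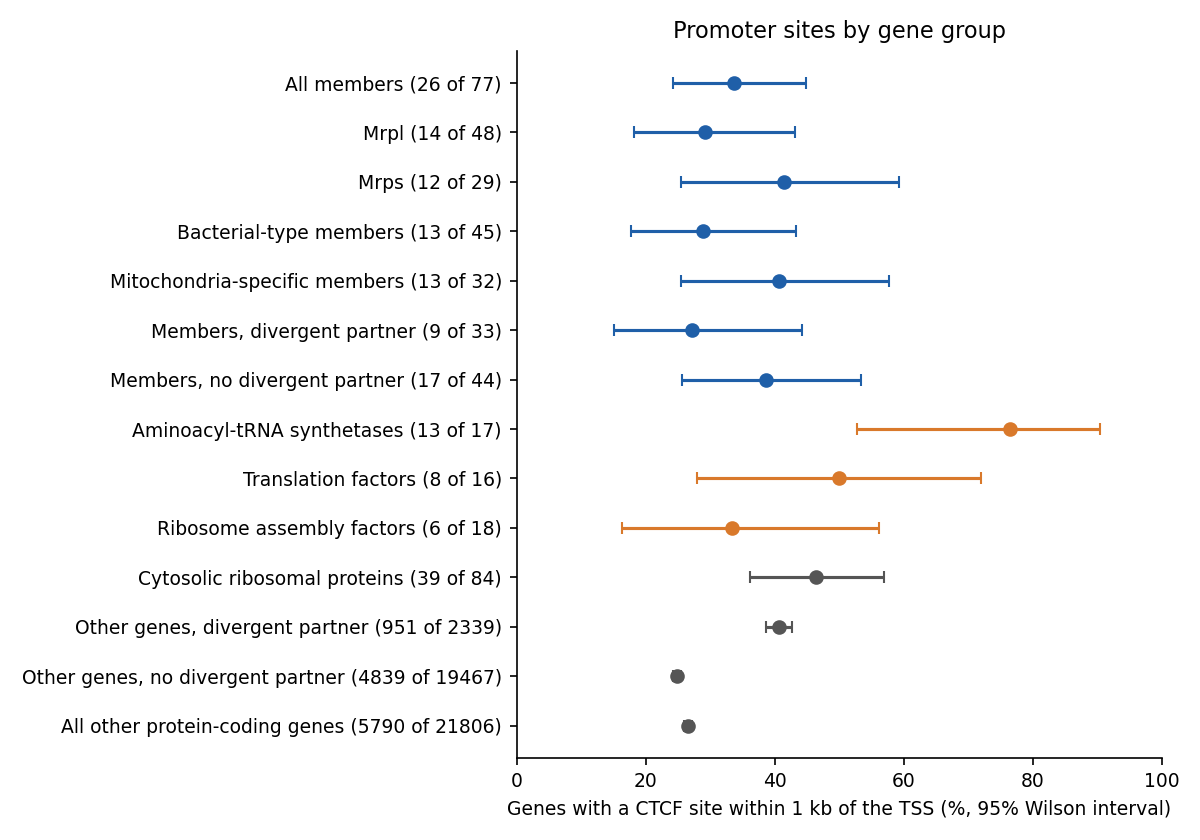
Percent of genes with a CTCF site within 1 kb of the TSS, with 95% Wilson intervals, for the mitochondrial ribosomal protein genes and their subgroups (blue), other genes of mitochondrial translation (orange) and other protein-coding genes (grey). Counts stand in the labels. All blue intervals include 26.6%, and the aminoacyl-tRNA synthetases, at 76.5%, lie farthest to the right.

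The plot by gene group adds other genes of the same pathway. Of 17 mitochondrial aminoacyl-tRNA synthetases, which charge tRNAs for these ribosomes, 13 had a promoter site (76.5%, 52.7 to 90.4%), against 29.8% of other genes at their GC. The strongest were Sars2 at 272.2, through the site it shares with Mrps12, and Aars2 at 218.5. Of 16 mitochondrial translation factors 8 had one, led by the elongation factors Tsfm at 305.1 and Gfm1 at 269.4. Assembly factors had one in 6 of 18 (33.3%, 16.28 to 56.25%), led by the ribosomal RNA methyltransferases Mrm1 at 282.6 and Mrm2 at 229.1. Other genes at their GC had one in 27.6%, which lies inside that interval. Ribosomal proteins under other names had one in 2 of 5, Aurkaip1 at 307.2 and Dap3 at 80.6, against 27.9% of other genes at their GC. The interval of that share is wide, from 11.8 to 76.9%. The 26 of 77 mitochondrial ribosomal protein genes thus stood against 29 of 56 (51.8%, 39.0 to 64.3%) over these 4 lists and against 39 of 84 cytosolic ribosomal protein genes (46.4%, 36.1 to 57.0%). Their share was below those of both sets, with intervals that overlap. At the GC of the 4 lists together and of the cytosolic set, 27.6% and 31.4% of other genes had a site. None of these lists and sets was compared at its CpG ratio.

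The promoters were finally searched for motifs of other factors that are known at genes of this kind, within 250 bp of the TSS and on both strands. The ETS motif CCGGAAG was found at 37 of the 77 promoters (48.1%, 37.2 to 59.0%), against 14.4% of other promoters, 17.2% weighted to GC and 21.8% weighted to the CpG ratio. The motif of NRF1, a regulator of nuclear genes for mitochondria, written GCGCNTGCG, was found at 19 (24.7%), against 10.3%, 11.2% and 15.6%. For YY1, with AANATGGCG, it was 14 (18.2%), against 5.10%, 5.92% and 7.28%. The ZNF143 motif was found at 7 (9.09%), against 2.24%, 2.96% and 3.44%: Mrpl19, Mrpl24, Mrpl34, Mrpl42, Mrpl50, Mrpl54 and Mrps22.

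The SP1 motif GGGCGG was at 47 promoters (61.0%, 49.9 to 71.2%), above the 52.6% of other promoters and the 53.6% weighted to GC. It was below the 63.7% weighted to GC within 250 bp and the 75.5% weighted to the CpG ratio. The interval holds each of these shares except that weighted to the CpG ratio. Overlap between these motifs was not removed. A match describes the letters of the sequence and does not show binding of the factor.

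The motifs were also counted at promoters with and without a CTCF site, with no test of the difference. Among the mitochondrial ribosomal protein genes, the ETS motif was at 12 of 26 promoters with a site and 25 of 51 without, the NRF1 motif at 5 of 26 and 14 of 51, the YY1 motif at 3 of 26 and 11 of 51, and the SP1 motif at 16 of 26 and 31 of 51. At other genes, promoters with a site had the SP1 motif in 73.7% and those without one in 45.0%. There the ETS motif was at 20.4% of promoters with a site and 12.2% of those without, the NRF1 motif at 15.4% and 8.48%, and the YY1 motif at 6.70% and 4.51%.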

How the data were processed

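CTCF ChIP-seq peak lists of 2 replicates were used: 1 list per replicate, 1 from pooled reads, and optimal and conservative IDR lists. Per the deposited README, both replicates were set against 1 shared control, on mm10; no aligner, caller or IDR setting is named in the sources used here. The peak signal was deposited as the authors' peak caller gave it and is not scaled between lists. Summits are the authors' deposited offsets. Depth is unknown, since a peak list carries no counts of reads.

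Genes came from GENCODE M21 and sequence from the GRCm38 patch release with the chromosomes of mm10. 1 gene of the name pattern is not reported here. Other genes were weighted over 20 bins of promoter GC. The motif matrix was learned from 3000 sites of odd autosomes outside 5 kb of the 77 genes, from a 9-base seed in 15 rounds that each dropped the lowest 30%; its threshold was the score passed by 1% of windows placed 1 kb away. It was tested on simulated data. Replicate summits were matched within 50 bp. The genes, lists and motifs were chosen with earlier results of these data known, the lists of other genes matched in full (56 of 56), and the ZNF143 pattern was revised after values were seen. Values are given in full for the 12 strongest promoter sites and for genes with both a partner and a site, and for the 2 strongest genes of each other list. No test was made over the list of genes. The tools were pysam 0.24.0, scipy 1.17.1, pandas 2.3.3 and numpy 2.4.6 under Python 3.11.15. Alternatives covered the list, the window, the TSS, the weighting and the motif rule.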

Additional observations from a re-analysis of the deposited data

How the results depend on the processing

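Of the values compared under other settings none changed direction among the 77 genes themselves. With the strongest 10000 summits only, 11.7% of the genes had a site within 1 kb, against 4.76% of other genes weighted to GC. Within 5 kb it was 16.9% of the genes, and no share of other genes is given for that window. With these summits the median distance was 173 bp and the motif share 77.8%, also without values of other genes. Within 500 bp, 29.9% of the 77 genes had a site, against 21.6% of the weighted other genes. With any transcript start it was 37.7% against 35.9%, and with the conservative list 33.8% against 26.6%. The 77 genes' 33.8% stood against 32.5% with GC of 250 bp and, in the opposite order, 39.4% with the CpG ratio. With an exact core consensus in place of the matrix, 7.69% of the genes with a site had a match. The 2 weightings by CpG ratio that were chosen after seeing the data gave 58.4% of other genes within 5 kb and 16.4% with a divergent partner.

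Leaving out 1 replicate gave 36.4 to 42.9% within 1 kb, 62.3% within 5 kb, 28.2 to 28.3% for the weighted other genes, 172 to 246 bp for the median distance, 52.6 to 58.0 for the median percentile, 33.3 to 39.3% for the motif share and -11.4 to -10.6 points for the divergent difference. These single-replicate lists were shortened to the length of the optimal list and passed no IDR step. Apart from the share of weighted other genes within 1 kb, no value of other genes is given for them. No paired analysis was possible because the study has 1 group. Depth is unknown, so the absence of a site is an absence from the list, not of binding.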
